A study of Mus musculus with 9 samples.

Results

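The 37 genes described here encode proteins of rods, from the light-driven enzyme cascade of the outer segment to the synapse and the factors that keep a rod a rod. They were chosen by symbol from a list, and all 37 were found, each on 1 entry, among the 25108 genes and gene models of the expression table. Some, Guca1a and Gnb1 among them, are made in other retinal cells too. Retinal RNA of C57BL/6 mice, collected on postnatal day 17, was sequenced as 9 libraries in 3 groups of 3. RA WT are wild-type mice kept in room air. OIR WT and OIR KO both had oxygen-induced retinopathy, the former in wild-type and the latter in IL-19 knockout mice. In oxygen-induced retinopathy, pups are exposed to high oxygen, lose part of the retinal vessels, and then develop a hypoxic retina with new vessels once back in room air. Room-air knockouts are not analysed here. Genotype and retinopathy therefore cannot be told apart when OIR KO is set against RA WT. The labels do not describe the knockout allele or say whether a sample is 1 animal or a pool, so the spread that the p-values rest on could be partly technical. Il19 itself was at 0.0406 FPKM in RA WT 1 and at 0 in the other 8 libraries, wild type included, so it does not check the genotype labels.

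Rods are the dim-light photoreceptors and the most numerous cells of the mouse retina. Light activates transducin, transducin activates a phosphodiesterase, the fall in cyclic GMP closes cation channels, and the resulting fall in calcium then drives recovery through calcium-sensing proteins. The outer segment that holds this machinery is a stack of membrane discs, built under the control of the factors CRX, NRL and NR2E3. In a bulk sample, fewer rods and less RNA per rod cannot be told apart.

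The level of each gene is given in FPKM, fragments scaled to gene length and to the total mapped, so levels of different genes are comparable per length. Absolute depth is unknown. A rough index of relative depth, from the most frequent low value of FPKM times length, lay between 0.857 (RA WT 2) and 1.14 (OIR KO 2) of its mean. At most 29.2% of low values in a library lay near whole steps of that value, so the index is uncertain. RA WT 1 and OIR KO 2 stood apart by 6 lens genes, which summed to 28.7 and 17.8 FPKM there and to at most 4.37 FPKM in the other 7 libraries. Changes are differences of log2(FPKM + 0.5), come from the linear model of limma fitted to all 9 libraries, and are given with a standard error (SE) or a 95% interval. A gene was called when its p, adjusted by the Benjamini-Hochberg method over all 15678 genes tested, was under 0.05. All 37 rod genes passed the filter on low values.

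Rod genes were among the most abundant transcripts of these retinas. In RA WT, 31 of the 37 had a mean above 100 FPKM, 8 had a mean above 1000 FPKM, and 17 were among the 100 highest entries of the table. Gnat1, the alpha subunit of rod transducin, ranked 3 in the table at 3637 ± 524 FPKM (SD, n = 3 libraries). At the other end was Gucy2f, a membrane guanylate cyclase, at 18.3 ± 4.70 FPKM. The 37 genes together made up 5.14 to 6.27% of the column total in RA WT, 5.12 to 5.96% in OIR WT and 5.16 to 6.07% in OIR KO, ranges that overlap.

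**Figure D1:**
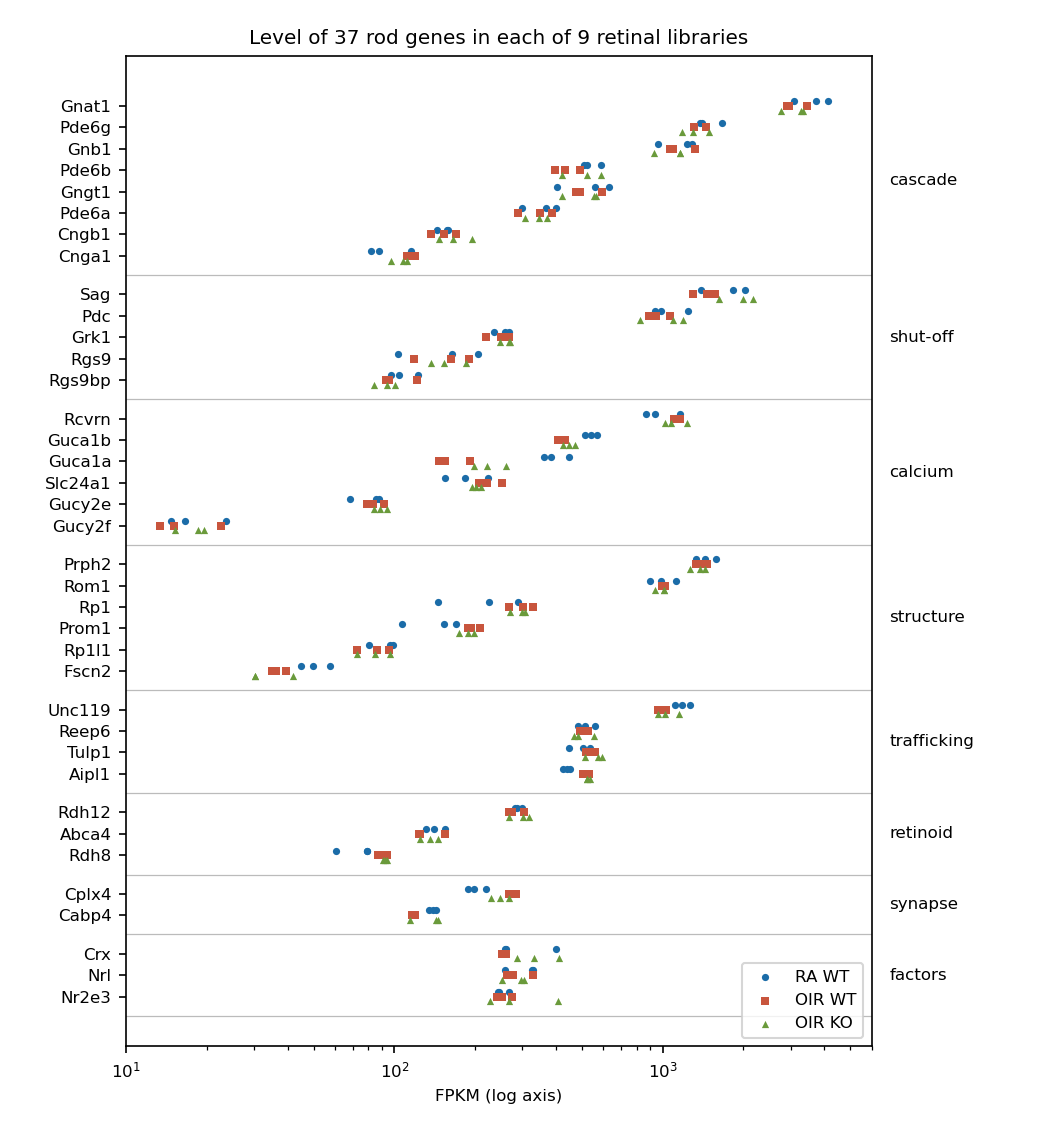
Level of the 37 rod genes in each library, in FPKM on a log axis, grouped by role (cascade, shut-off, calcium, structure, trafficking, retinoid, synapse, factors); each symbol is 1 library. Gnat1 lies at 2764 FPKM or more in all 9 libraries, Gucy2f below 24 FPKM, and the groups are well separated in few genes, among them Guca1a.

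Of the 37 rod genes, 4 were called in a comparison with room air, and the largest change was in a calcium sensor. In OIR WT against RA WT, Guca1a and Guca1b fell and Cplx4 rose, which makes 3 of 37 called (8.11%), against 16.0% of all genes tested (8.04% risen and 7.92% fallen). In OIR KO against RA WT, Guca1a and Fscn2 fell and none rose, 2 of 37 (5.41%), against 10.4% of all genes tested (4.75% risen and 5.69% fallen). At an unadjusted p under 0.05 there were 11 of 37 in OIR WT (29.7%, against 30.4% of all genes tested) and 7 of 37 in OIR KO (18.9%, against 27.6%). Both comparisons use the same RA WT libraries. The median log2 change of the 37 was -0.05 in OIR WT and -0.02 in OIR KO, against 0.015 and 0.02 over all genes tested. The median size of the change, ignoring sign, was 0.12 in OIR WT and 0.15 in OIR KO, against 0.21 and 0.19 over all genes tested. Whether the share of rod genes called was below or above that of all genes rested on single libraries. Without RA WT 1, 7 of 37 were called in OIR WT (18.9%, against 13.5% of all genes tested in that fit), when Cnga1, Slc24a1, Prom1 and Rp1 also rose. Without OIR WT 1 it was 1, Guca1a alone (2.70%, against 6.68%). In OIR KO against RA WT only Guca1a was called without RA WT 2, RA WT 3, OIR KO 2 or OIR KO 3. With both lens-rich libraries left out, a choice made after seeing the data, 8 were called in OIR WT (5 rose and 3 fell), or 21.6% against 16.0% of all genes tested in that fit, and 1, Guca1a, in OIR KO (2.70%, against 3.36%). In OIR KO the rod share was also above that of all genes without RA WT 1 (8.11% against 7.74%) and without OIR KO 1 (5.41% against 4.56%).

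**Figure D2:**
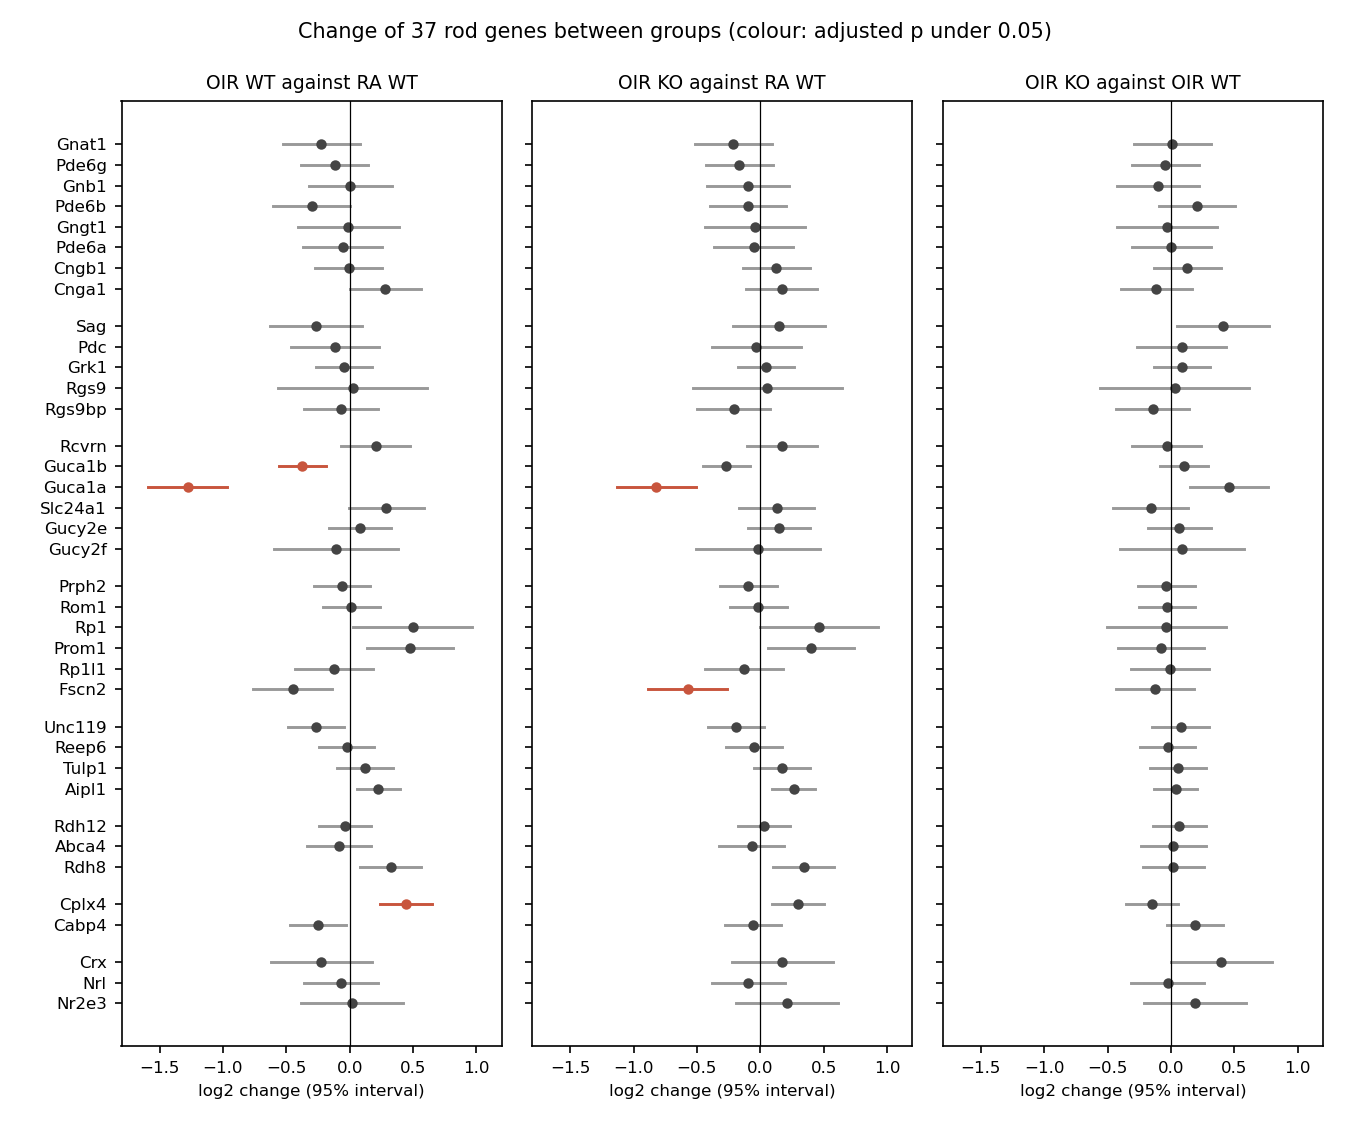
Log2 change of each rod gene (points) with its 95% interval (bars) for 3 comparisons between groups, in the order of roles used for the levels; colour marks an adjusted p under 0.05. Guca1a stands at -1.28 in OIR WT and -0.82 in OIR KO against RA WT, away from the other members, and no gene is coloured for OIR KO against OIR WT.

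Of the genes of calcium feedback, those for both guanylate cyclase-activating proteins fell in OIR WT. These proteins sense the drop in calcium during the light response and switch on the cyclases that restore cyclic GMP. Guca1a encodes GCAP1, made in rods and cones (ENSMUSG00000023982, GRCm38 chromosome 17, 47394558 to 47400584, minus strand), and Guca1b encodes GCAP2 (ENSMUSG00000023979, chromosome 17, 47385393 to 47392967, plus strand). They lie tail to tail with 1590 bases between their ends, and no annotated gene overlaps either.

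Guca1a was at 362, 385 and 449 FPKM in the RA WT libraries, at 147, 192 and 155 in OIR WT, and at 221, 197 and 261 in OIR KO. The 3 groups did not overlap, with OIR KO between the others. The log2 change was -1.28 (SE 0.14, 0.412-fold, limma adjusted p = 0.00114) in OIR WT and -0.82 (SE 0.14, 0.567-fold, limma adjusted p = 0.00826) in OIR KO, both against RA WT. Each call held without any 1 of the 9 libraries. Between the genotypes, Guca1a was higher in OIR KO by 0.46 (95% interval 0.15 to 0.77), which did not pass after adjustment (limma adjusted p = 0.331).

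Guca1b was at 539, 514 and 570.2 FPKM in the RA WT libraries, at 413, 433 and 406 in OIR WT, and at 449, 426 and 472 in OIR KO. Every retinopathy library was below every RA WT library, while the genotypes overlapped. The log2 change was -0.37 (SE 0.08, 0.773-fold, limma adjusted p = 0.0169) in OIR WT, a call that needed OIR WT 1 (adjusted p = 0.0736 when left out) and OIR WT 3 (adjusted p = 0.0658 when left out). In OIR KO it was -0.27 (SE 0.08, limma adjusted p = 0.0703). The ratio of Guca1a to Guca1b, a comparison within each library, lay between 0.673 and 0.787 in RA WT, 0.356 and 0.442 in OIR WT, and 0.463 and 0.553 in OIR KO, so it too separated the 3 groups. No test was made of the ratios.

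**Figure D3:**
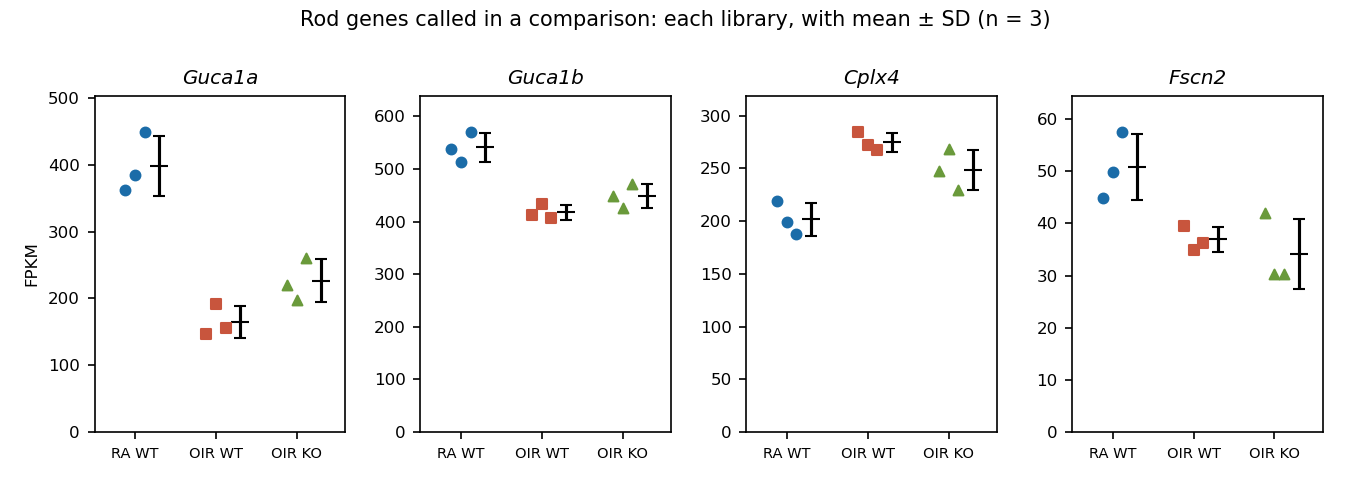
Level in FPKM of the 4 rod genes called in a comparison, Guca1a, Guca1b, Cplx4 and Fscn2, with 1 symbol per library and the group mean ± SD (n = 3) beside it; axes start at 0. Guca1a separates all 3 groups, whereas for Guca1b, Cplx4 and Fscn2 the genotypes overlap and RA WT stands apart from both.

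Other genes of calcium feedback did not pass the test. Their intervals give the sizes that the data leave possible. Gucy2e, a cyclase that GCAPs switch on, had means in RA WT, OIR WT and OIR KO of 80.3 ± 10.5, 84.7 ± 6.28 and 88.7 ± 5.14 FPKM (log2 change in OIR WT against RA WT 0.08, 95% interval -0.16 to 0.33). Rcvrn, recoverin, which restrains the pigment kinase GRK1 in the dark, was at 988 ± 154, 1131 ± 25.8 and 1108 ± 109 FPKM in RA WT, OIR WT and OIR KO (0.21, 95% interval -0.07 to 0.48). Rcvrn lies wholly within the span of the opposite-strand gene Glp2r, at 19.5 to 43.8 FPKM. Without a stated strand setting, reads from any exons they share cannot be told apart. Slc24a1, the sodium-calcium, potassium exchanger that removes calcium from the outer segment, averaged 187 ± 34.8 FPKM in RA WT against 227 ± 22.6 FPKM in OIR WT (0.29, 95% interval -0.01 to 0.58). For Gucy2f the interval was wide, from -0.59 to 0.38.

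Markers of other cells moved in the same libraries as Guca1a. Of 12 cone markers, 1 rose and 2 fell in OIR WT (25.0% called, against 16.0% of all genes tested), Gnb3 (log2 change 1.04), Arr3 (-0.87) and Rxrg (-0.61). In OIR KO 1 was called, Rxrg, which fell (8.33%, against 10.4%). In OIR WT 9 of the 12 had a negative change, and their median was -0.14. None of the 12 was at 0 in any library, and their summed level was 832 to 870.3 FPKM in RA WT, 911 to 1008 in OIR WT and 882 to 1019 in OIR KO. Gnb3 alone turned that direction, since the other 11 summed to 645 to 657 FPKM in RA WT, 481 to 639 in OIR WT and 473 to 615 in OIR KO. Of 8 Müller glia markers, 6 fell in OIR WT (75.0%, where 7.92% of all genes tested fell) and 3 in OIR KO (37.5%, where 5.69% fell). Their sums were 2076 to 2655 FPKM in RA WT, 1104 to 1602 in OIR WT and 1643 to 1900 in OIR KO. None of the 8 was at 0 in any library. Between the genotypes none of the 8 was called. At an unadjusted limma p under 0.05, 6 were higher in OIR KO and 0 lower (75.0%, against 9.91% of all genes tested). Of the other marker lists, 4 of 10 bipolar, 3 of 8 amacrine, 2 of 5 horizontal, 5 of 7 ganglion cell and 1 of 6 pigment epithelium genes tested fell in OIR WT, where 7.92% of all genes tested fell. In OIR KO, where 5.69% fell, the counts in the same order were 0, 4, 2, 5 and 0. Of 7 microglia genes, 3 rose in OIR WT and 3 in OIR KO, where 8.04% and 4.75% of all genes tested rose. Of 2 lens genes tested, limma called 0 in either comparison. At an unadjusted p under 0.05 there was 1 in OIR WT and 0 in OIR KO, against 30.4% and 27.6% of all genes tested. The part of these cells in the Guca1a result was not tested.

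Promoters are shown for the calcium sensor that fell (Guca1a), for the cyclase it acts on, which was not called (Gucy2e), and for 2 further members named below (Aipl1 and Fscn2). Each is the stretch of 250 bases before the gene's start, 5′ to 3′ on the gene's strand, from RefSeq on GRCm38.p6. Capitals mark the letters TAATCC or their reverse complement GGATTA, the core recognised by CRX, the homeodomain factor of photoreceptors. The windows are chr17:47400607-47400856 (minus strand) for Guca1a, chr11:69237023-69237272 (minus strand) for Gucy2e, chr11:72037510-72037759 (minus strand) for Aipl1 and chr11:120361284-120361533 (plus strand) for Fscn2.
Guca1a: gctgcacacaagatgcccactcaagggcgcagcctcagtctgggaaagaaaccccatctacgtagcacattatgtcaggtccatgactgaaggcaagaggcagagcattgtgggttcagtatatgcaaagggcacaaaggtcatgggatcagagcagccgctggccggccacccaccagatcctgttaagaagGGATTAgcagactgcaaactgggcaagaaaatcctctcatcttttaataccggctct
Gucy2e: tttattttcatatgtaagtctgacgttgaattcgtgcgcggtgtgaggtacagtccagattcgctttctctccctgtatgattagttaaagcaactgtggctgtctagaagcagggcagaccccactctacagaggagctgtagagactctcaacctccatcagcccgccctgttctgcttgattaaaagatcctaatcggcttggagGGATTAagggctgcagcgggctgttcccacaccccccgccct
Aipl1: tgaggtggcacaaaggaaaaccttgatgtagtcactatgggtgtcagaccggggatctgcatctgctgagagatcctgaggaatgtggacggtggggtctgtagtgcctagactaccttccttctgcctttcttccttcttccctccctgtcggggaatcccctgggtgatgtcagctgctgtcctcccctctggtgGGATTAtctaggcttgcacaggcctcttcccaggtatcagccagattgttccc
Fscn2: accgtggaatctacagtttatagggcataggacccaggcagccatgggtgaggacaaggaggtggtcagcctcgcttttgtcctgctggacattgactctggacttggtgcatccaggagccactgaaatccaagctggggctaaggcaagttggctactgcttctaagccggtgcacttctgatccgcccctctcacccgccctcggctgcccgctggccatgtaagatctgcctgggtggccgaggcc

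The CRX core begins 57 bases before the start in Guca1a, 42 bases in Gucy2e and 53 bases in Aipl1, and does not occur in the Fscn2 window. An entry matched 26 of the 37 members, and not Cabp4, Cplx4, Gnat1, Guca1b, Pde6a, Pde6g, Rcvrn, Reep6, Rgs9bp, Rp1 and Rp1l1. Of the 26, 11 (42.3%) held the core on either strand within 250 bases, against 7.21% of 27025 genes with an entry. Within 100 bases it was 9 of 26 (34.6%), against 2.69% of the same genes. The letters TGCTGA or TCAGCA, part of the site of NRL, occurred in 6 of 26 (23.1%), against 18.0% of genes. A match is a match of letters only, and no binding was measured.

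At the rod synapse, Cplx4 rose in OIR WT. It encodes complexin 4, which acts on vesicle release at photoreceptor ribbon synapses (ENSMUSG00000024519, chromosome 18, 65955722 to 65970237, minus strand). Its level was 219, 199 and 188 FPKM in the RA WT libraries, 284, 272 and 267 in OIR WT, and 247, 268 and 229.9 in OIR KO. Both retinopathy groups lay above RA WT. The log2 change was 0.45 (SE 0.09, 1.36-fold, limma adjusted p = 0.012) in OIR WT, a call that needed OIR WT 1 (adjusted p = 0.0589 when left out), and 0.30 (SE 0.09, limma adjusted p = 0.0661) in OIR KO. Cabp4, a calcium-binding regulator of the synaptic calcium channel, was at 139 ± 4.17 FPKM in RA WT, 117 ± 1.89 FPKM in OIR WT and 135 ± 17.1 FPKM in OIR KO. Its OIR WT libraries all lay below RA WT, with a log2 change of -0.25 (95% interval -0.47 to -0.03) that did not pass (limma adjusted p = 0.12). Cabp4 shares 4247 bases with the opposite-strand gene Gpr152, at 11.8 to 19.1 FPKM.

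Among disc and outer segment genes, Fscn2 fell in OIR KO. It encodes the retinal fascin, which bundles actin (ENSMUSG00000025380, chromosome 11, 120361534 to 120368168, plus strand). Its level was 45.0, 49.8 and 57.5 FPKM in the RA WT libraries, 39.6, 34.9 and 36.3 in OIR WT, and 42.0, 30.3 and 30.3 in OIR KO. All 6 retinopathy libraries lay below RA WT. The log2 change was -0.57 (SE 0.14, 0.672-fold, limma adjusted p = 0.03) in OIR KO and -0.45 (SE 0.14, limma adjusted p = 0.0556) in OIR WT. The OIR KO call was lost without RA WT 2, RA WT 3, OIR KO 2 or OIR KO 3 (adjusted p = 0.0673, 0.104, 0.103 and 0.0717). It was also lost with only RA WT and OIR KO in the fit (adjusted p = 0.0609), without the filter on low values (adjusted p = 0.0503) and without both lens-rich libraries (adjusted p = 0.0907). The difference between the genotypes was -0.13 (95% interval -0.44 to 0.19).

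Besides Fscn2, no disc or outer segment gene was called in the fit of all 9 libraries. Prph2, peripherin, the tetraspanin that shapes the rim, was at 1452 ± 126 FPKM in RA WT, 1392 ± 67.0 FPKM in OIR WT and 1359 ± 85.7 FPKM in OIR KO, with a log2 change in OIR WT of -0.06 (95% interval -0.28 to 0.16). Its partner Rom1 was at 1001 ± 113, 1006 ± 12.4 and 986 ± 45.9 FPKM, with a change of 0.01 (95% interval -0.21 to 0.24). Prom1, prominin 1, which sits where new discs form, was at 169.9, 154 and 107 FPKM in RA WT, against 209, 193 and 188 FPKM in OIR WT, without overlap but short of the threshold (log2 change 0.48, SE 0.15, limma adjusted p = 0.0597). Rp1, a microtubule protein of the axoneme, was at 288, 225 and 146 FPKM in RA WT, against 302, 329 and 269 FPKM in OIR WT (0.50, SE 0.21, limma adjusted p = 0.141). RA WT 3 was the lowest library for both Prom1 and Rp1. Rp1l1, a relative of Rp1, was at 92.0 ± 9.87 FPKM in RA WT, with a change of -0.12 (95% interval -0.43 to 0.19) in OIR WT.

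None of the 8 genes of transducin, phosphodiesterase and channel was called in any comparison. Of all genes tested, 16.0% were called in OIR WT and 10.4% in OIR KO, both against RA WT, and 0.134% between the genotypes. So short a list cannot show whether its share differs from that of all genes. Gnat1 was at 3720.1, 3077 and 4115 FPKM in the RA WT libraries, 2897, 3441 and 2965 in OIR WT, and 3291, 2764 and 3337 in OIR KO. The groups overlapped, and the log2 change was -0.22 (95% interval -0.53 to 0.08) in OIR WT and -0.21 (95% interval -0.52 to 0.09) in OIR KO. Gnb1, the beta subunit, which other retinal cells make too, and Gngt1, the rod gamma subunit, had changes in OIR WT of 0.01 (95% interval -0.32 to 0.33) and -0.01 (95% interval -0.41 to 0.39).

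The phosphodiesterase genes differed a little among themselves. Pde6b, a catalytic subunit, was at 589, 510.4 and 524 FPKM in the RA WT libraries, 433, 491 and 397 in OIR WT, and 521, 421 and 588 in OIR KO. Its OIR WT libraries lay below RA WT, with a log2 change of -0.30 (SE 0.13, limma adjusted p = 0.165). Pde6a, the other catalytic subunit, was at 355 ± 51.0 FPKM in RA WT, 342 ± 48.6 FPKM in OIR WT and 341 ± 32.8 FPKM in OIR KO. The ratio of Pde6a to Pde6b was 0.586 to 0.702 in RA WT, 0.7297 to 0.807 in OIR WT and 0.632 to 0.7283 in OIR KO. OIR WT thus lay above the other groups, over OIR KO by a very small margin. It is 1 of several ratios computed. Gnat1 to Gnb1 was 2.89 to 3.35 in RA WT, 2.61 to 2.78 in OIR WT and 2.84 to 2.98 in OIR KO. Gucy2e to Gucy2f and Nrl to Nr2e3 overlapped between all groups. Pde6g, the inhibitory subunit, was at 1481 ± 163, 1359.7 ± 82.1 and 1322 ± 153 FPKM, with a change in OIR WT of -0.12 (95% interval -0.38 to 0.14).

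The channel genes Cnga1 and Cngb1 encode the subunits that cyclic GMP holds open in the dark. Cnga1 was at 115, 87.4 and 81.5 FPKM in the RA WT libraries, 111, 119 and 111 in OIR WT, and 111, 97.1 and 107 in OIR KO (log2 change in OIR WT 0.28, SE 0.12, limma adjusted p = 0.161). RA WT 1 overlapped the retinopathy libraries and the other RA WT libraries did not. Cngb1 was at 154 ± 7.81 FPKM in RA WT, 153 ± 16.0 FPKM in OIR WT and 169 ± 23.9 FPKM in OIR KO. The ratio of Cnga1 to Cngb1 was 0.513 to 0.729 in RA WT and 0.703 to 0.810 in OIR WT, ranges that overlap.

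**Figure D4:**
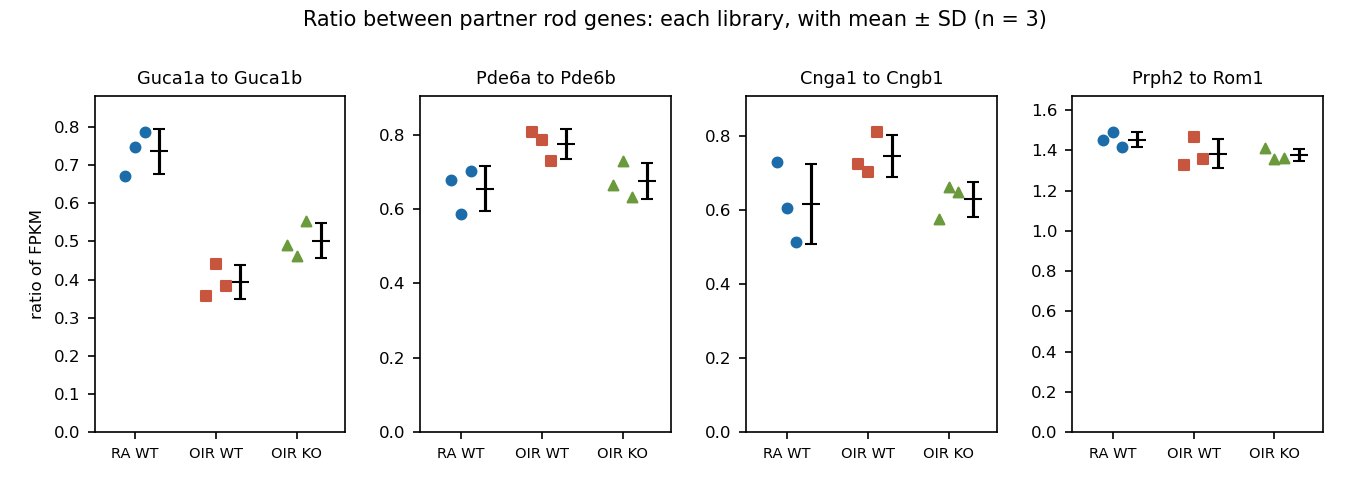
Ratio of the FPKM of partner rod genes within each library (symbols), with the group mean ± SD (n = 3); axes start at 0. Guca1a to Guca1b separates the groups, from 0.673 to 0.787 in RA WT down to 0.356 to 0.442 in OIR WT, while Prph2 to Rom1 stays between 1.33 and 1.49 in all 9 libraries.

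None of the 5 genes that end the light response was called. Of all genes tested, 16.0% were called in OIR WT and 10.4% in OIR KO, both against RA WT, and 0.134% between the genotypes. This list is also too short to show whether its share differs. Sag, rod arrestin, which caps the light-activated pigment, was at 1832, 1387 and 2032 FPKM in the RA WT libraries, 1458, 1565 and 1302 in OIR WT, and 1993, 1615 and 2175 in OIR KO. The OIR KO libraries all lay above OIR WT, by 0.41 on the log2 scale (95% interval 0.05 to 0.77, limma adjusted p = 0.447). Grk1, the kinase that tags that pigment for arrestin, was at 254 ± 17.3, 246 ± 24.8 and 261 ± 12.5 FPKM in RA WT, OIR WT and OIR KO. Rgs9, which with its anchor Rgs9bp speeds the shut-off of transducin, spread widely within RA WT (103 FPKM in library 2, 205 in library 1), and its change in OIR WT of 0.03 had the widest interval of the 37, -0.56 to 0.61. Rgs9bp was at 108 ± 13.1, 103 ± 15.7 and 92.9 ± 8.48 FPKM. Pdc, phosducin, which binds the transducin beta and gamma subunits, was at 1053 ± 162, 967 ± 85.8 and 1035 ± 189 FPKM.

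Of the trafficking and chaperone genes, Aipl1 and Unc119 separated RA WT from OIR WT without being called. Aipl1, the chaperone that phosphodiesterase needs to fold, was at 440.3, 426 and 453 FPKM in the RA WT libraries, 531, 509 and 503 in OIR WT, and 537, 523 and 523 in OIR KO. Its log2 change was 0.23 (SE 0.08, limma adjusted p = 0.0721) in OIR WT and 0.26 (SE 0.08, limma adjusted p = 0.0554) in OIR KO. Unc119, which carries lipid-tagged transducin, was at 1187 ± 77.3 FPKM in RA WT, 986 ± 38.1 FPKM in OIR WT and 1042 ± 99.0 FPKM in OIR KO (-0.27 in OIR WT, SE 0.10, limma adjusted p = 0.101). Tulp1, needed for protein transport to the outer segment, was at 496 ± 45.7, 538 ± 21.4 and 559 ± 40.9 FPKM. Reep6, a membrane protein of rod vesicle transport, was at 518 ± 38.7, 509 ± 16.3 and 501 ± 48.7 FPKM.

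Of the genes that handle retinoids, Rdh8, which reduces all-trans-retinal in the outer segment, was at 79.4, 60.8 and 79.1 FPKM in the RA WT libraries, 91.8, 93.9 and 87.1 in OIR WT, and 90.3, 93.7 and 92.3 in OIR KO. Every retinopathy library lay above RA WT, yet neither change passed (0.32, SE 0.11, limma adjusted p = 0.0695 in OIR WT; 0.34, SE 0.11, limma adjusted p = 0.0705 in OIR KO). Rdh12, a dehydrogenase of the inner segment, was at 289 ± 8.96, 282 ± 19.6 and 296 ± 25.0 FPKM in RA WT, OIR WT and OIR KO. Abca4, the disc transporter that clears retinal conjugates, was at 142 ± 11.6, 134 ± 18.1 and 135 ± 11.0 FPKM.

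The 3 transcription factors were not called in any comparison. Against RA WT, 16.0% of all genes tested were called in OIR WT and 10.4% in OIR KO, and between the genotypes 0.134% were. With 3 genes no difference from these shares can be shown. Nrl, which sets rod fate, was at 304 ± 39.2 FPKM in RA WT, 290 ± 35.3 FPKM in OIR WT and 284 ± 27.8 FPKM in OIR KO (log2 change in OIR WT -0.07, 95% interval -0.36 to 0.22). Nr2e3, the partner of Nrl that keeps cone genes off in rods, was at 408 FPKM in OIR KO 1 and between 228 and 274 FPKM in the other 8 libraries. Nr2e3 overlaps the antisense gene Gm7616 over 7760 bases, introns included. Without a stated strand setting, reads from any exons they share cannot be told apart. Crx was highest in OIR KO 2 (412 FPKM), RA WT 2 (401 FPKM) and OIR KO 1 (331 FPKM), and lay between 252 and 287 FPKM in the other 6 libraries. It was higher in every OIR KO library than in any OIR WT library, by 0.40 on the log2 scale (SE 0.18, limma adjusted p = 0.503).

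Libraries of the same group differed in their rod genes. OIR KO 2 was the lowest of the 9 libraries for 13 of the 37 genes (35.1%, against 12.2% of all genes tested), OIR WT 3 for 9 (24.3%, against 8.87%) and RA WT 2 for 8 (21.6%, against 10.9%). Each had the lowest summed level of its group. The median deviation of the 37 genes from their own means was -0.14, -0.13 and -0.11 on the log2 scale in these libraries. It was 0.12 in RA WT 1, 0.09 in RA WT 3, 0.09 in OIR KO 1, 0.09 in OIR WT 2 and 0.07 in OIR KO 3, and -0.05 in OIR WT 1. Over all genes tested, the median deviation of a library lay between -0.02 and 0.02. The extremes, OIR KO 2 and RA WT 1, are the lens-rich libraries. The rough and uncertain index of relative depth was 1.14, 0.949 and 0.857 in OIR KO 2, OIR WT 3 and RA WT 2. It was above its mean in the first and below it in the others. The part of depth and of lens RNA in these differences was not tested.

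**Figure D5:**
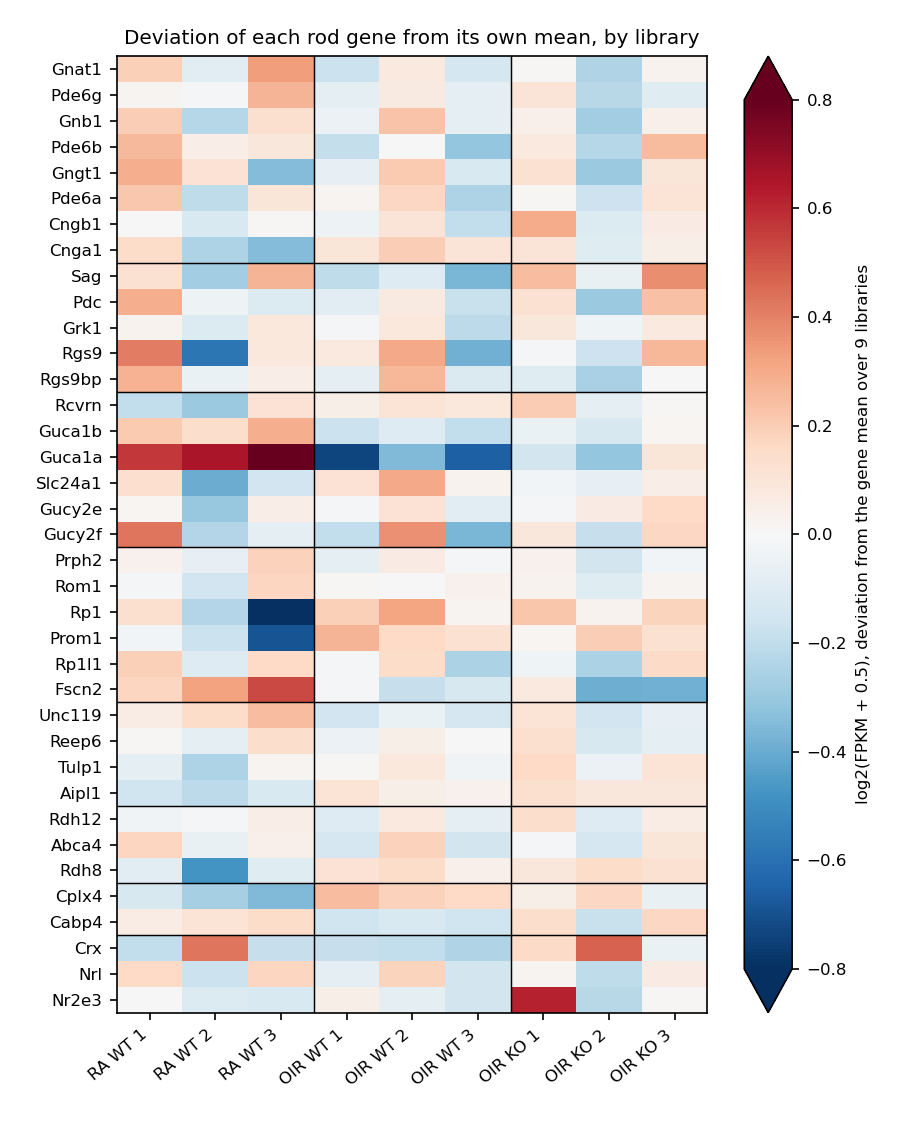
Deviation of each rod gene (rows, grouped by role) from its own mean over the 9 libraries (columns), on the log2(FPKM + 0.5) scale. Guca1a is high in RA WT and low in OIR WT, Rp1 and Prom1 are low in RA WT 3, Crx is high in RA WT 2 and OIR KO 2, and Nr2e3 is high in OIR KO 1.

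Between the genotypes in retinopathy, none of the 37 rod genes was called by limma, against 0.134% of all genes tested (0.0574% risen and 0.0765% fallen). At an unadjusted p under 0.05 there were 3, Guca1a, Sag and Crx, all higher in OIR KO, or 8.11% against 9.91% of all genes tested. These were also the 3 whose groups did not overlap, where 9.73% of all genes tested were higher in OIR KO without overlap and 7.98% lower. The median log2 change of the 37 was 0.02, against -0.003 over all genes tested. Over the 37 genes the 95% intervals reached from -0.56 to 0.80, and their median width to either side was 0.29. Each interval gives the differences that 3 libraries a group leave possible for its own gene.

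Groups of RA WT and OIR WT did not overlap for 10 rod genes. Of these, 4 were higher in OIR WT (Prom1, Aipl1, Rdh8 and Cplx4), where 17.8% of all genes tested were, and 6 were lower (Guca1a, Guca1b, Fscn2, Pde6b, Unc119 and Cabp4), where 17.2% were. Against the same RA WT libraries, Prom1, Aipl1, Rdh8 and Cplx4 were higher in OIR KO without overlap (4 genes, where 17.3% of all genes tested were) and Guca1a, Guca1b and Fscn2 were lower (3 genes, where 15.4% were).

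A second list of 39 photoreceptor genes, made with earlier results of these data known, was read beside the 37. In OIR WT 8 rose and 0 fell (20.5% called), against 16.0% of all genes tested (8.04% risen and 7.92% fallen). In OIR KO 4 rose and 0 fell (10.3% called), against 10.4% of all genes tested (4.75% risen and 5.69% fallen). The median log2 change was 0.02 in OIR WT and 0.14 in OIR KO.

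Of 17 genes of cilium, trafficking and matrix, 3 rose and 0 fell in OIR WT. That is 17.6% called, against 16.0% of all genes tested (8.04% risen). In OIR KO limma called 0, against 10.4% of all genes tested. At an unadjusted p under 0.05 there were 3 (17.6%, against 27.6% of all genes tested). Impg2, a proteoglycan of the matrix around photoreceptors, rose in OIR WT from 42.4 ± 8.10 to 99.0 ± 16.8 FPKM (log2 change 1.22, SE 0.24, limma adjusted p = 0.0119). Impg1, its relative, rose by 0.69 and Mak, a kinase of the photoreceptor cilium, by 0.49. In OIR KO, Impg2 and Impg1 were above RA WT without overlap but short of the threshold, by 0.83 (limma adjusted p = 0.0598) and 0.43 (limma adjusted p = 0.0981). Of 13 genes of inner segment and ribbon synapse, Drd4, Elfn1 and Ctbp2 rose in OIR WT (23.1% called, against 16.0% of all genes tested). In OIR KO, Drd4 and Elfn1 rose (15.4% called, against 10.4%). Drd4, the dopamine receptor of photoreceptors, was at 109, 110.4 and 126 FPKM in the RA WT libraries, 177, 178 and 181 in OIR WT, and 238, 224 and 199 in OIR KO. Its log2 change was 0.64 in OIR WT (limma adjusted p = 0.0035) and 0.93 in OIR KO (limma adjusted p = 0.00141), and 0.29 between the genotypes (limma adjusted p = 0.365). Elfn1, which links rods to bipolar cells, rose by 0.56 in OIR WT and by 0.38 in OIR KO. Ctbp2, whose product includes the ribbon protein, rose by 0.38 in OIR WT. Among 9 further transcription factors, Neurod1 rose by 0.58 in OIR WT and 0.57 in OIR KO, and Samd7, a repressor active in rods, by 0.65 and 0.76. That is 22.2% called in each comparison, against 16.0% of all genes tested in OIR WT and 10.4% in OIR KO.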

How the data were processed

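The authors deposited 1 table of FPKM values with 1 column per library, for 9 retinal libraries. RNA was isolated with Trizol from frozen retinas and libraries were made with an NEBNext Ultra kit, per the labels' protocols. HISAT2 and GRCm38 are named in the submitters' processing notes; the sources used here give no version, quantifier, annotation release or strand setting. FPKM divides by the total mapped, so a large rise elsewhere lowers every other value.

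Genes with at least 0.5 FPKM in at least 3 libraries (15678) were taken as log2(FPKM + 0.5) and fitted with limma 3.58.1 in R 4.3.3, 1 mean per group, with the trend and robust options, and Benjamini-Hochberg adjustment over all of them. The script was tested on simulated data with independent noise for each gene, which does not cover shifts shared by many genes of a library. Low FPKM values were checked for whole steps in 4521 genes with 1 transcript; 21.9 to 29.2% per library lay within 0.02 of a step, so no reads were recovered and no interval for counting is given. Positions come from GENCODE M21 (GRCm38), which held all 37 members. By whole gene spans, 8 of them overlap a gene on the opposite strand (Gnb1, Rcvrn, Pdc, Pde6a, Nr2e3, Prom1, Abca4 and Cabp4). These spans include introns, and overlap between exons was not checked. Motifs were searched on both strands.

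Alternatives covered the pseudocount, the filter, 3 scalings, the libraries in the fit, the moderation, a replicate block and leaving out each library. Members and gene lists were chosen with earlier results of these data known. Named in the text are all 37 members, and, of the other photoreceptor genes, those called in each list, or the 3 with the largest change where more than 3 were called in 1 direction. Lists of bipolar, amacrine, horizontal, ganglion, microglia, pigment epithelium, lens, cone and Müller markers served as checks.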

Additional observations from a re-analysis of the deposited data

How the results depend on the processing

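In OIR WT against RA WT, 3 rod genes were called and the count stayed at 3 or 4 under 10 alternative settings, always with Guca1a, Guca1b and Cplx4; Fscn2 joined them under median scaling, scaling to the other genes and a fit of the 2 groups alone. Leaving out 1 library gave 1 to 7. With RA WT 1 and OIR KO 2, chosen after seeing the data for their lens genes, left out together, it was 8. In OIR KO against RA WT, 2 were called; it was 1 with only the 2 groups compared, 1 with a replicate block (Fscn2 adjusted p = 0.0582) and 1 without both lens-rich libraries, with Fscn2 lost each time. It was 3 under quantile normalization, where Aipl1 also rose, and 1 to 3 on leaving out 1 library. Without the filter Aipl1 took the place of Fscn2 (Fscn2 adjusted p = 0.0503). In OIR KO against OIR WT the count was 0 under every setting run. Deviations of same-numbered libraries correlated with r from -0.353 to 0.134, and those of differently numbered libraries with r from -0.165 to 0.351. No pairing by replicate number was seen, but such correlations cannot show whether samples shared a litter or a batch. With the replicate block the count in OIR WT was 3. The cause of these moves was not tested. Median FPKM scaling moved the median change of all genes by under 0.1 (log2). Absolute depth is unknown, and 3 libraries per group limit what can be detected.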
